A study of Homo sapiens with 2 samples.

Results

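Nuclear receptors are transcription factors whose activity is often set by a small lipophilic ligand, such as a steroid, a retinoid, vitamin D, a thyroid hormone or a fatty acid. Steroid receptors are held by chaperones until the hormone binds, whereas retinoid, thyroid hormone, vitamin D and lipid receptors mostly sit on DNA as partners of a retinoid X receptor and exchange corepressors for coactivators when ligand arrives. The NR4A receptors work without a known classical ligand and are induced within minutes of a stimulus, and in the urothelium retinoid and PPAR signalling are known for their part in differentiation. The genes described here are 42 nuclear receptor genes, chosen by gene family with no measured value in the rule, of 14232 genes in all. A gene counted as measured when at least 1 probe set was annotated with its symbol alone, and this held for 31 of the 42, each with 1 probe set.

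The cells were J82, an established human bladder cancer line grown in DMEM with serum, stained with Hoechst, a DNA dye, and separated by flow sorting. The side population (SP) is the fraction that excludes the dye, and the non-side population (NSP) is the rest of the same line. Neither population had a further treatment, and both are fractions of 1 line. There was 1 array of total RNA for SP and 1 for NSP, so no difference has a replicate check, no test was possible and each value describes these 2 arrays.

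Values are log2 signals, and a difference is the SP value minus the NSP value, in log2. The floor is the median of all values in the table, 7.44, and a gene is at the floor when the higher of its 2 values reaches it. A gene is called when it is at the floor and its 2 values differ by 1.5-fold or more (0.58 in log2). The SP array spanned 2.15 to 13.99 (median 7.43) and the NSP array 2.11 to 13.93 (median 7.44). Among the 7549 genes at the floor the difference had a median of -0.05, and 95% of these genes lay between -0.51 and 0.63. Of the defining urothelial and epithelial markers 5 of 14 were at the floor (KRT7, KRT8, KRT18, KRT19 and FOXA1), while GATA3 and the 4 uroplakin genes were under it. The summed linear signal of the 14 was 12299 in SP and 9640 in NSP, and KRT8 had 13.18 in SP and 12.77 in NSP. All 8 mesenchymal markers were at the floor, with a sum of 7563 in SP and 7136 in NSP, and 1 was called, ZEB2, with 9.56 in SP and 8.54 in NSP (2.03-fold). The part of these markers in the results below was not tested. Immune markers were at the floor for 2 of 8, endothelial for 1 of 6 and erythroid or platelet for 0 of 4, and their summed linear signals were 1218 in SP and 1335 in NSP for immune markers, 555 in SP and 553 in NSP for endothelial markers, and 301 in SP and 288 in NSP for erythroid or platelet markers. The dye transporter gene ABCG2 was under the floor in each population (6.14 in SP and 5.69 in NSP), and ABCB1 had 9.87 in SP and 9.17 in NSP.

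Promoter sequence is shown for the 2 members that were called, NR4A1 and NR3C1. It is also shown for RARB, the member furthest apart among those under the floor. The sequences are the 250 bases before an annotated start, from RefSeq on GRCh38.p14, in which 38 of the 42 members have 87 such windows. For NR4A1 and NR3C1 the window with the most CpG dinucleotides is shown, and for RARB the window with a direct repeat. Capitals mark the GC box GGGCGG and the cAMP response motif TGACG on either strand in NR4A1 and NR3C1, and both parts of the repeat GTTCACNNNNNGTTCAC in RARB. The windows are, in turn, NR4A1 at chr12:52037465-52037714 on the plus strand, NR3C1 at chr5:143403687-143403936 on the minus strand and RARB at chr3:25428013-25428262 on the plus strand.
NR4A1: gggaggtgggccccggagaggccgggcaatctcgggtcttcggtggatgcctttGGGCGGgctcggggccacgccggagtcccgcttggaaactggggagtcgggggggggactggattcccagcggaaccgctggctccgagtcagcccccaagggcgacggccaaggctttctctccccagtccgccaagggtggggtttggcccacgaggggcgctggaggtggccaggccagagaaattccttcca
NR3C1: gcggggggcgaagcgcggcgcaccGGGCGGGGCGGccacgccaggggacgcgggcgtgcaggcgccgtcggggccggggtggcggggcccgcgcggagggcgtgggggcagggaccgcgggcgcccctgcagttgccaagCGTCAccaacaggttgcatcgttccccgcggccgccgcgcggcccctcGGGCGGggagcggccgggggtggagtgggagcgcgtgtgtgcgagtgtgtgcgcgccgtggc
RARB: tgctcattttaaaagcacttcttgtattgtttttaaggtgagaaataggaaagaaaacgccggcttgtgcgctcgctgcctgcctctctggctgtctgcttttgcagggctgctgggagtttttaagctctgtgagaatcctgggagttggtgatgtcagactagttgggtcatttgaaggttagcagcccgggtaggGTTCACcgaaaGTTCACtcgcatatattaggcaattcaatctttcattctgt

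The NR3C1 window held 42 CpG dinucleotides and 3 GC boxes, of which the 2 furthest from the start overlap by a base, and the NR4A1 window held 18 and 1. Across all 35116 windows of this length the median was 11 CpG, 42.6% held a GC box and 21.2% a TGACG. The NR3C1 and NR4A1 windows were picked for the most CpG, so their counts cannot be compared with these values. NR3C1 has 7 annotated windows with 0 to 42 CpG, of which 5 held a GC box and 2 a TGACG. The other NR4A1 window held 4 CpG and 0 GC boxes. Neither of the 2 NR4A1 windows held TGACG in these exact letters, a search that leaves out variant forms. The repeat in RARB lies 52 to 36 bases before the start and has the form of the element through which retinoic acid receptors are known to act on this gene. It was in 4 of all windows (0.0114%), and in 1 of the 4 windows of RARB. The search used these exact letters, so the share leaves out variant forms of the repeat and does not set RARB apart. The motifs AGGTCA of many nuclear receptors and AGAACA of the glucocorticoid receptor were in 12.1% and 12.4% of all windows, and in 0 of the 7 windows of NR3C1. These are matches of letters and no measure of binding.

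The NR4A genes encode the orphan receptors of the NGFI-B type. NR4A1 (Nur77), which is transcribed as an immediate early gene, had a signal of 9.90 in SP and 9.13 in NSP. Both values were above the floor and SP was the higher, by 0.77 in log2 or 1.70-fold. Among genes at the floor it ranked 109 of 7549 counted from the largest positive difference, so 1.44% were as far or further. Of the 1669 genes whose mean signal lay within 0.5 of it, 36 were (2.16%), and those neighbours had a median difference of -0.08 with an SD of 0.284. RefSeq lists an antisense gene, NR4A1AS, over part of the locus, and whether the probes separate the strands is not given in the sources used here. NR4A2 (Nurr1) lay only on a probe set shared with another gene and NR4A3 (NOR1) was not analysed here, so NR4A1 alone stands for the NR4A genes.

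Of the 39 other members 30 were measured, and 14 of these were at the floor. A single receptor of the 14, NR3C1, was at least 1.5-fold higher in SP, against 3.1% of all genes at the floor (234 of 7549), and 0 were lower by that margin, against 1.43% (108 of 7549). After centring on the median, 288 and 76 of all genes were past those margins, and the members' counts were again 1 and 0. Of the 14, 3 were higher and 11 lower, against 59.6% of all genes at the floor lower in SP, and the count became 5 higher and 9 lower under each of centring, trend removal and quantile normalisation, where 50%, 49.1% and 54.1% of all genes were lower. The median difference of the 14 was -0.14, against -0.05 for all genes at the floor. RORB and VDR reached the floor in NSP alone, and over the 12 other members with both values at it the median was -0.07, also against -0.05. In the plot of differences the lower members at the floor ran from -0.02 (PPARD) to -0.54 (RORB), all short of 1.5-fold. At a lower threshold, a difference of 0.32 in log2, 2 of the 14 were higher and 4 lower. Of all genes at the floor 8.57% and 10.7% were past that threshold.

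**Figure D1:**
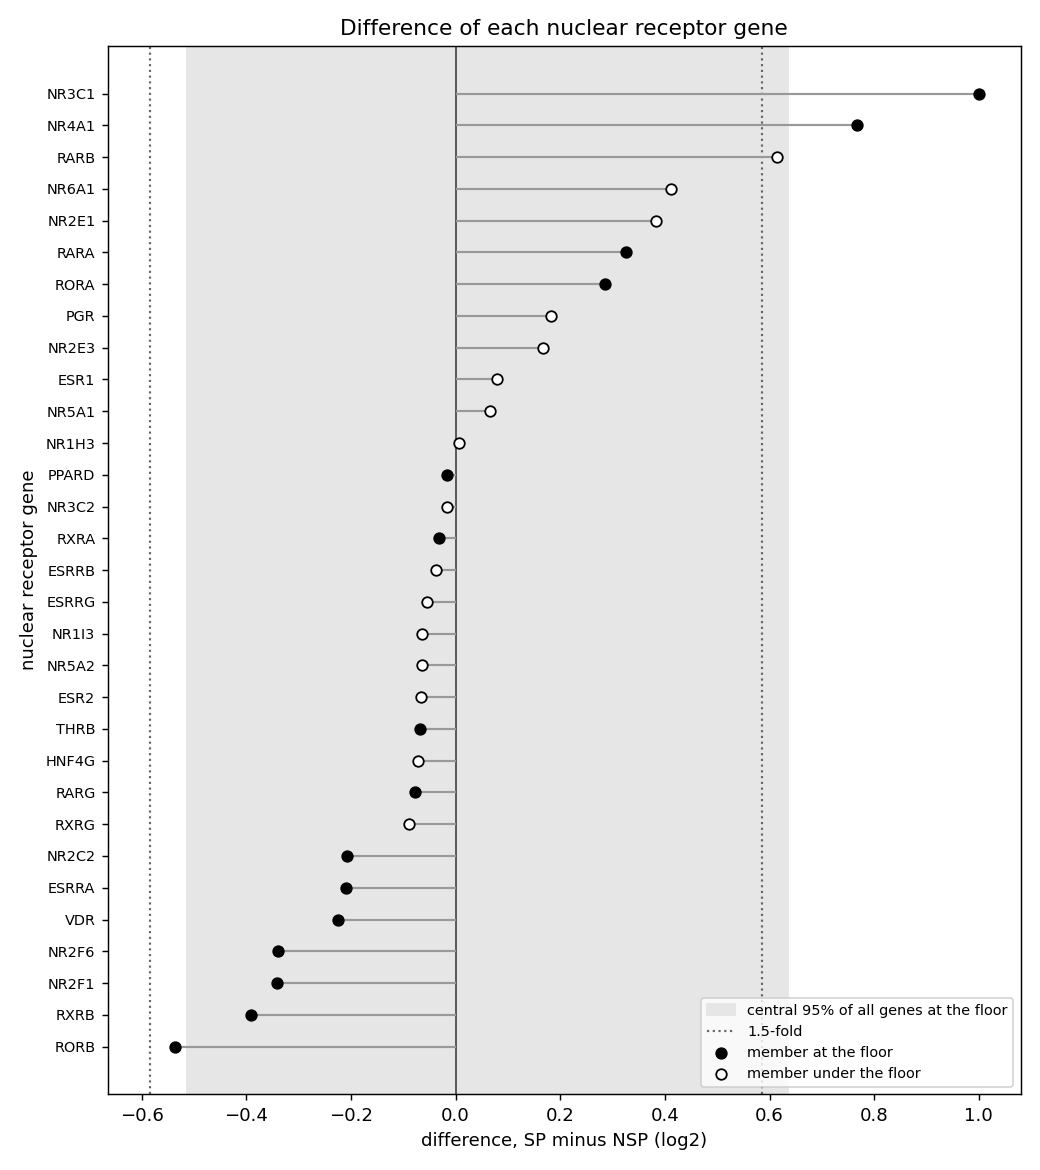
Difference of each of the 31 measured nuclear receptor genes, SP minus NSP in log2, on the horizontal axis, with 1 array per population and hence no error bars. Filled points are at the floor of 7.44 and open points under it, the grey band holds 95% of all genes at the floor and dotted lines mark 1.5-fold. NR3C1 (1.0), NR4A1 (0.77) and the open point RARB (0.61) lie past 1.5-fold, and RORB (-0.54) lies just inside it on the lower side.

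Steroid receptors bind cortisol, aldosterone, progesterone or oestrogens. NR3C1, the glucocorticoid receptor gene, had 9.35 in SP and 8.35 in NSP. It was the member furthest apart, with a difference of 1.0, right at 2-fold, a margin that 0.609% of genes at the floor reached (46 of 7549, NR3C1 being the last of them). Of the 2449 genes within 0.5 of its mean signal, 17 were as far above NSP (0.694%), and their SD was 0.284. RefSeq also lists a pseudogene, NR3C1P1, and whether probes of the set match it is not known here.

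The other 4 steroid receptor genes were under the floor in each population and differed little. NR3C2, the mineralocorticoid receptor gene and the closest relative of NR3C1, had 5.90 in SP and 5.92 in NSP. PGR, the progesterone receptor gene, had 4.58 in SP and 4.40 in NSP. The oestrogen receptor genes ESR1 and ESR2 had 6.19 and 5.05 in SP, against 6.11 and 5.11 in NSP. Values this dim cannot tell a low transcript from background, since detection was not in the table. Among the 5 steroid receptor genes NR3C1 was thus the only one at the floor, and the difference between NR3C1 and the other 4 was not tested.

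The oestrogen-related receptors are orphans that control mitochondrial energy genes. ESRRA, the broadly expressed member, had 8.66 in SP and 8.87 in NSP, a difference of -0.21 that 23.7% of genes at the floor equalled or passed on the lower side. ESRRB, a stem cell factor in mouse, had 6.04 and ESRRG 5.15 in SP, against 6.07 and 5.20 in NSP. Both were under the floor.

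Retinoic acid receptors bind all-trans retinoic acid. Of their 3 genes 0 were called. RARA had 8.29 in SP and 7.97 in NSP, a difference of 0.33. RARB had 5.89 in SP and 5.27 in NSP, both under the floor. Its difference of 0.61 (1.53-fold) was the only one past 1.5-fold among the 16 members under the floor, where 2.27% of all genes (152 of 6683) were past it either way. Among the 1671 genes close to it in signal, 23 were as far up (1.38%). With a trend on signal level removed the RARB difference was 0.56, which is short of 1.5-fold. RARG, the main form in skin, had 7.49 in SP and 7.57 in NSP.

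Retinoid X receptors are the shared partners of many other receptors. RXRB had 8.29 in SP and 8.69 in NSP, a difference of -0.39 that 5.93% of genes at the floor equalled or passed on the lower side. RXRA had 8.32 in SP and 8.35 in NSP, a difference of -0.03 that was 0.02 under centring and so had no settled sign. RXRG, a form of muscle and brain, had 5.03 in SP and 5.12 in NSP, under the floor.

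**Figure D2:**
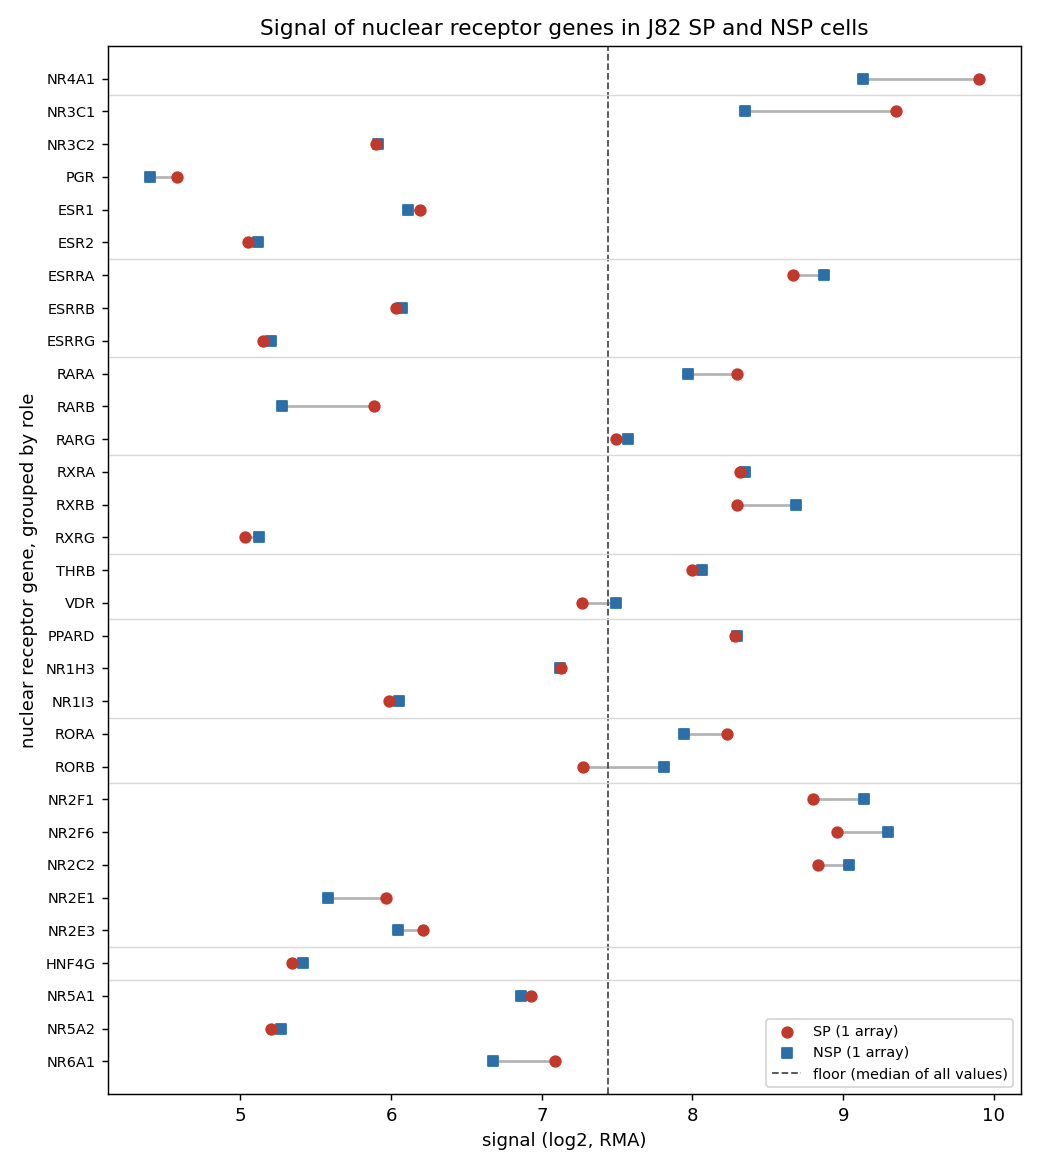
Signal of each measured nuclear receptor gene (log2, horizontal axis) in SP (circles) and NSP (squares), 1 array each, grouped by role from NR4A1 at the top to the NR5 and NR6 genes at the bottom. The dashed line is the floor of 7.44. Only differences within a row can be read, since probe sets of different genes have no common scale. The widest gaps at the floor are NR3C1 (9.35 in SP and 8.35 in NSP) and NR4A1 (9.90 in SP and 9.13 in NSP).

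Of the receptors for thyroid hormone and vitamin D 0 were called. THRB had 8.0 in SP and 8.06 in NSP, a difference of -0.07 beside the median of -0.05 for all genes at the floor. VDR had 7.27 in SP and 7.49 in NSP, so its SP value lay under the floor. The difference of VDR was -0.22, which 21.5% of genes at the floor equalled or passed. THRA lay only on probe sets shared with another gene.

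Among the sensors of lipids, bile acids and foreign compounds no gene differed by more than 0.1. PPARD, which responds to fatty acids, had 8.28 in SP and 8.30 in NSP. NR1H3, the liver X receptor alpha gene, had 7.13 in SP and 7.12 in NSP. NR1I3, the constitutive androstane receptor gene, had 5.99 in SP and 6.05 in NSP. The last 2 were under the floor. PPARA lay only on shared probe sets, and NR1H2, NR1H4 and NR1I2 were not analysed here.

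The ROR receptors are known for acting on circadian genes, and neither of the 2 genes described was called. RORA had 8.23 in SP and 7.94 in NSP, a difference of 0.28. RORB had 7.27 in SP, under the floor, and 7.81 in NSP. At -0.54 (1.45-fold lower in SP) it was the member furthest on the lower side, equalled or passed by 2.0% of genes at the floor and by 61 of the 2981 genes close to it in signal (2.05%).

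The COUP-TF and testicular receptors are orphans that often repress by competing for shared DNA sites. All 3 of these genes at the floor were lower in SP, under each scaling too. Of all genes at the floor 59.6% were lower in SP, and 49.1% to 54.1% under the other scalings. NR2F1 (COUP-TFI) had 8.80 in SP and 9.14 in NSP, and NR2F6 (EAR2) had 8.96 in SP and 9.30 in NSP. Their differences of -0.34 each (1.27-fold) were equalled or passed by 9.09% and 9.26% of genes at the floor. NR2C2 (TR4) had 8.83 in SP and 9.04 in NSP, a difference of -0.21. The related genes NR2E1, known from neural stem cells, and NR2E3, known from photoreceptors, had 5.96 and 6.21 in SP, against 5.58 and 6.05 in NSP, all under the floor. NR2C1 lay only on a shared probe set and NR2F2 (COUP-TFII) was not analysed here.

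The remaining members were under the floor. HNF4G, of the hepatocyte nuclear factor type, had 5.34 in SP and 5.42 in NSP. NR5A1 (SF-1), a regulator of steroid synthesis, had 6.93 in SP and 6.86 in NSP. NR5A2 (LRH-1) had 5.20 in SP and 5.27 in NSP. NR6A1 (GCNF), which silences pluripotency genes in mouse embryos, had 7.09 in SP and 6.68 in NSP. Its difference of 0.41 was the second in size under the floor after RARB, and 3.05% of genes close to it in signal were as far up. HNF4A and NR0B1 were not analysed here. Of the 16 members under the floor 8 were higher and 8 lower, against 3980 higher and 2548 lower of all 6683 genes under the floor. Their differences had a median of -0.01, against 0.05 for all genes under the floor.

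**Figure D3:**
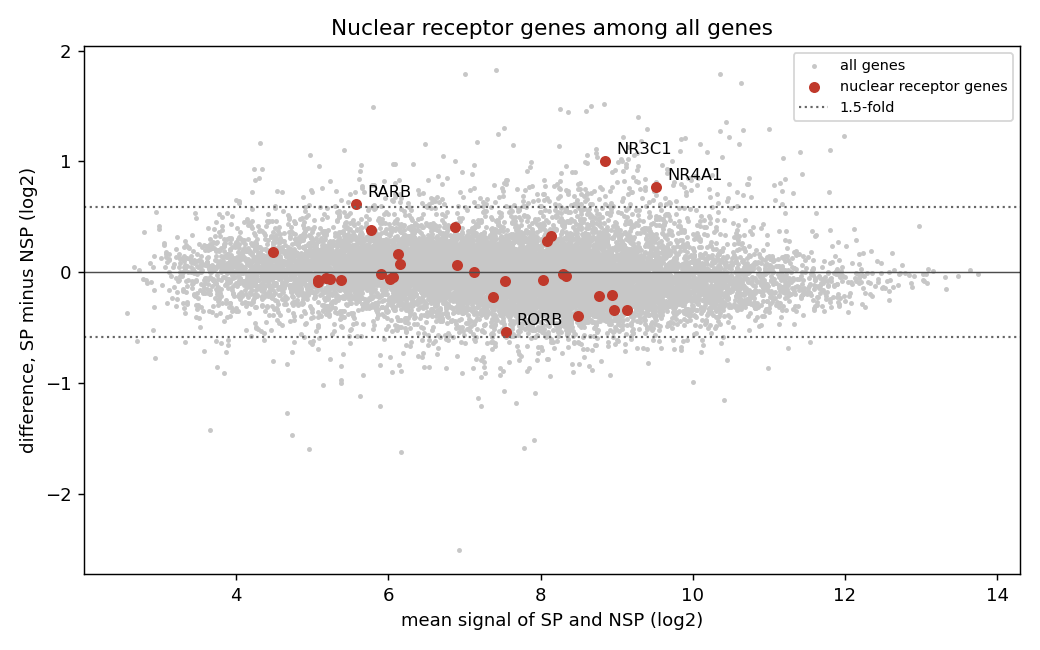
Difference between SP and NSP (log2, vertical axis) against the mean signal of the 2 arrays (log2, horizontal axis) for all 14232 genes in grey and the 31 nuclear receptor genes in red. Dotted lines mark 1.5-fold. NR3C1 and NR4A1 lie above the upper line among bright genes, RARB just above it among dim genes, and RORB just short of the lower line.

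The nuclear receptor genes outside the member list include PPARG, a regulator of fat and luminal urothelial genes. PPARG had 9.20 in SP and 8.50 in NSP, a difference of 0.69 (1.62-fold), and was called. It was 1 of 2 such genes at the floor, and 3.1% of all genes at the floor were called higher. The circadian repressor gene NR1D2 had 10.24 in SP and 10.26 in NSP. NR0B2 had 6.48 in SP and 6.63 in NSP, under the floor. NR1D1 had no single-symbol probe set.

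Genes that act with the receptors or under them were read from 17 lists by role, which held 245 distinct genes apart from the members, 187 of them measured. None of the lists held a gene at the floor that was 1.5-fold lower in SP, against 1.43% of all genes at the floor. Of their 111 distinct genes at the floor, 18 were 1.5-fold higher (16.2%), against 3.1% of all genes at the floor, and these 18 lay in 8 of the lists. The lists were chosen with earlier results of these data known, so this share is no independent support.

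Coactivators bind the liganded receptor and modify chromatin. Of 16 coactivator genes at the floor 2 were called higher, against 3.1% of all genes at the floor. PPARGC1A (PGC-1 alpha), a coactivator of PPAR and oestrogen-related receptors in energy metabolism, had 10.73 in SP and 9.64 in NSP, a difference of 1.09 or 2.12-fold. NCOA7 had 8.91 in SP and 8.22 in NSP (1.61-fold). PPARGC1B had 8.50 in SP and 8.05 in NSP (1.37-fold), and the acetyltransferase gene CREBBP had 10.02 in SP and 9.60 in NSP (1.34-fold). The list as a whole was split evenly, with 8 genes higher and 8 lower and a median of 0.03. Under the other scalings 9 to 11 of the 16 were higher.

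Corepressors bind the receptor without ligand or with antagonists. Of 11 genes at the floor BCOR was called, with 8.97 in SP and 8.25 in NSP (1.65-fold). NRIP1 (RIP140), which is unusual in binding liganded receptors, had 7.90 in SP and 7.35 in NSP, an NSP value under the floor. Its fold of 1.47 was short of 1.5, and centring brought the number called in the list to 2. LCOR, which also binds liganded receptors, and SIN3A, a scaffold for histone deacetylases, were 1.21-fold higher each. The list had a median of 0.01.

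Chaperone genes of steroid receptors differed little, with 0 of 7 called and a median of -0.07. HSP90AA1, the heat shock protein that holds the unliganded receptor, had 11.18 in SP and 11.28 in NSP. FKBP4, which helps the glucocorticoid receptor reach the nucleus, had 10.62 in SP and 10.91 in NSP. STIP1 had 11.27 in SP and 11.40 in NSP, and NUDC 7.90 in SP and 7.78 in NSP.

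Genes known to be induced by the glucocorticoid receptor had a median of 0.65 over genes at the floor. Of 9 genes at the floor 5 were called higher, against 3.1% of all genes at the floor. By any amount 8 of the 9 were higher, against 3027 of all 7549 genes at the floor. The counts of 5 and 8 were the same under each scaling. DUSP1, a MAP kinase phosphatase, had 12.60 in SP and 11.37 in NSP. The kinase gene SGK1 had 11.95 in SP and 10.87 in NSP (2.12-fold). ERRFI1, an inhibitor of ERBB receptors, had 11.10 in SP and 10.42 in NSP. NFKBIA, the inhibitor of NF-kB, had 11.41 in SP and 10.75 in NSP. The other called gene, ANGPTL4, which is also on the PPAR list, had 8.29 in SP and 7.64 in NSP. The exception among genes at the floor was GADD45B, with 8.76 in SP and 9.19 in NSP. CEBPD, KLF9 and PER1 were at the floor and not called, with differences of 0.38, 0.23 and 0.13. TSC22D3 (GILZ), a classical target named here after its value was seen, had 7.24 in SP and 7.32 in NSP, both under the floor. FKBP5 had no single-symbol probe set. Over all 14 measured genes of the list the median was 0.31. DUSP1 and NFKBIA also respond to stress and to NF-kB, and such overlap was not tested. Activity of the receptor itself, and other routes to the rest of the list, were not tested either.

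The CREB and calcium responsive genes, a list that also holds CREB1, had a median of 0.45 over the 12 at the floor. Of these 6 were called higher and 0 called lower, while 10 were higher and 1 lower by any amount. Of all genes at the floor 3.1% were called higher and 1.43% lower, and 3027 of 7549 were higher by any amount. CREB and calcium are routes known to induce NR4A genes. Other routes to the listed genes, and any link to NR4A1 here, were not tested. EGR1 had 11.49 in SP and 9.78 in NSP. CREB1 itself had 10.44 in SP and 9.66 in NSP (1.73-fold), PDE4D 8.27 in SP and 7.50 in NSP (1.71-fold), and FOS 11.68 in SP and 10.96 in NSP (1.65-fold). The other called genes were FOSB, with 11.47 in SP and 10.86 in NSP, and the phosphodiesterase gene PDE4B, with 7.95 in SP and an NSP value of 7.35 that lay under the floor. Counting only genes with both values at the floor gave 5 of 11 called and a median of 0.30.

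Retinoic acid receptor targets had 2 of 7 genes called higher, against 3.1% of all genes at the floor. Their median was 0.21, which became -0.03 without the floor. BHLHE40 had 11.87 in SP and 10.99 in NSP (1.85-fold), and RAI1 8.07 in SP and 7.47 in NSP (1.51-fold). TNFAIP2 had 9.31 in SP and 9.04 in NSP. TGM2, a transglutaminase gene induced by retinoic acid, had 9.56 in SP and 10.03 in NSP. Genes that make and carry retinoids were called in 0 of 5 cases. ALDH1A3, which makes retinoic acid, had 8.34 in SP and 8.11 in NSP, while DHRS3, which lowers it, had 8.81 in SP and 8.60 in NSP. The retinol dehydrogenase genes RDH11 and RDH14 had 9.42 and 8.29 in SP, against 9.66 and 8.10 in NSP.

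**Figure D4:**
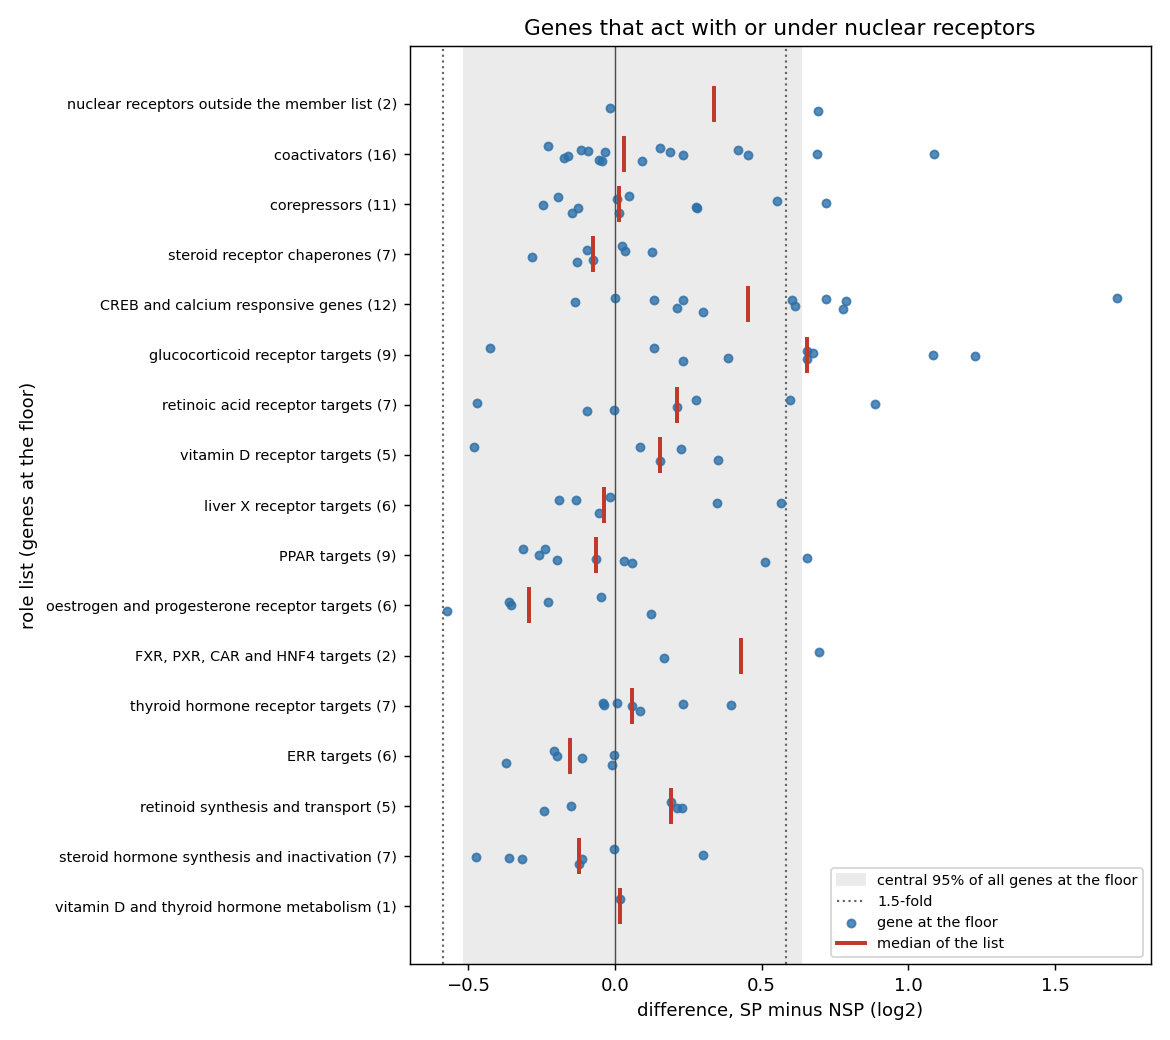
Difference between SP and NSP (log2, horizontal axis) of genes at the floor in the 17 role lists, with the number of genes in brackets. Points are genes, with vertical jitter only, red bars are list medians, the grey band holds 95% of all genes at the floor and dotted lines mark 1.5-fold. The glucocorticoid receptor targets have a median of 0.65 and the CREB and calcium responsive genes of 0.45, and no point lies past 1.5-fold on the lower side.

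The lipid receptors' targets gave mixed values. Of 9 PPAR targets at the floor 1 was called, ANGPTL4, an inhibitor of lipoprotein lipase, with 8.29 in SP and 7.64 in NSP, and with the trend on signal removed 2 were, ACSL1 being the second. ACSL1 had 9.94 in SP and 9.43 in NSP (1.42-fold), and the fat oxidation gene ACADVL had 10.34 in SP and 10.66 in NSP. UCP2, a mitochondrial carrier gene, had 10.80 in SP and 11.06 in NSP. The list median was -0.07 and was 0.02 with the trend on signal removed. Of 6 liver X receptor targets 0 were called. The cholesterol exporter gene ABCA1 had 8.86 in SP and 8.29 in NSP (1.48-fold) and was past 1.5-fold under each of the other scalings, and MYLIP had 9.84 in SP and 9.50 in NSP. The lipid synthesis genes SCD and FASN had differences of -0.13 and -0.19.

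Targets of oestrogen and progesterone receptors had a median of -0.29 over genes at the floor, with 5 of 6 genes at the floor lower in SP (4 of 6 under centring and trend removal) and 0 called. IGFBP4 had 8.91 in SP and 9.48 in NSP, 1.49-fold lower in SP. STC2 had 8.57 in SP and 8.93 in NSP, CA12 9.63 in SP and 9.99 in NSP, and CCND1 9.83 in SP and 10.05 in NSP. Over all 12 measured genes the median was -0.01. Of 6 targets of oestrogen-related receptors at the floor 6 were lower in SP, against 59.6% of all genes at the floor. Their median was -0.15, and 4 or 5 of the 6 were lower under the other scalings. Without the floor 2 of the 8 measured genes were higher, 1 of them past 1.5-fold, and the median was -0.06. Cytochrome c (CYCS) had 9.10 in SP and 9.47 in NSP, and COX5B had 10.80 in SP and 11.01 in NSP. The fat oxidation gene ACADM had 9.82 in SP and 10.02 in NSP, and the malate dehydrogenase gene MDH1 had 9.62 in SP and 9.73 in NSP.

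Of 7 steroid synthesis and inactivation genes at the floor 6 were lower (5 under the other scalings), against 59.6% of all genes at the floor. Their median was -0.12 and 0 were called. Over all 17 measured genes 7 were higher and 10 lower, with a median of -0.02. CYP17A1, at the floor in NSP alone, had 7.03 in SP and 7.50 in NSP. The hydroxysteroid dehydrogenase gene HSD17B11 had 8.0 in SP and 8.31 in NSP, and the mitochondrial dehydrogenase gene HSD17B10 had 10.06 in SP and 10.42 in NSP. AKR1C3, which makes potent androgens, was the exception among genes at the floor, with 10.22 in SP and 9.92 in NSP. HSD11B1, which activates cortisol, had 4.06 in SP and 4.34 in NSP, and HSD11B2, which inactivates it, 7.12 in SP and 7.14 in NSP. Both were under the floor and are named after their values were seen.

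Targets of the vitamin D receptor had 0 of 5 called and a median of 0.15. CDKN1A had 8.95 in SP and 8.73 in NSP, and CAMP, an antimicrobial peptide gene, had 9.27 in SP and 8.92 in NSP. CA2 had 7.38 in SP, under the floor, and 7.86 in NSP, while THBD had 7.55 in SP and 7.40, under the floor, in NSP. Thyroid hormone targets had 0 of 7 called and a median of 0.06, with BCL3 at 9.62 in SP and 9.22 in NSP and KLF9 at 8.33 in SP and 8.10 in NSP. HCRT had 7.55 in SP and 7.47 in NSP, and CPT1A had 9.21 in SP and 9.15 in NSP. For the receptors of bile acids and foreign compounds only 2 of 14 measured targets were at the floor, the efflux pump gene ABCB1 (1.62-fold higher) and F7 (1.12-fold). Of vitamin D and thyroid hormone metabolism only DIO2 was at the floor, with 8.12 in SP and 8.10 in NSP.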

How the data were processed

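RNA of SP and NSP J82 cells was measured on a human exon array, 1 array each. The authors deposited log2 values, and per the submitters' processing notes RMA and Partek were used. For software versions, the definition of a probe set, filters and the array's genome build, the entry is: not given in the sources used here. RMA and the range of values give the log2 scale. Precision is limited by the number of arrays.

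Of 22011 probe sets, 14432 had 1 gene symbol, 2408 several and 5171 none. Symbols were updated by Entrez identifier (14404 matched RefSeq on GRCh38.p14) and probe sets of a gene averaged. Functions were tested on simulated data. Genes near in signal lie within 0.5 of a gene's mean. The promoter search read both strands.

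Named were all members, the further receptor genes described and up to 4 genes at the floor per role list with the largest absolute difference. GATA3, GADD45B, CEBPD, PER1, PDE4B, FOSB, TSC22D3, HSD11B1 and HSD11B2 were added after their values were seen. Members and lists were chosen with earlier results of these data known, so list values are no independent support. The alternatives were centring, lowess (span 0.3), quantile normalisation, the brightest probe set, other floors, a lower fold threshold and the mean. A version without genes shared by lists was chosen after seeing the data. The tools were Python 3.11.15, numpy 2.4.6, pandas 2.3.3, statsmodels 0.14.6 and matplotlib 3.10.9.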

Additional observations from a re-analysis of the deposited data

How the results depend on the processing

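Of 124 values of the 31 member differences under centring, trend removal, quantile normalisation and the brightest probe set, 123 stayed on the same side of 1.5-fold. The exception was RARB with the trend removed (0.56). Each member has 1 probe set, so the 31 values under the brightest probe set could not differ from the main ones. Centring moved every member by the same 0.05. NR4A1 ranged from 0.77 to 0.85 and NR3C1 from 1.0 to 1.07. Other members 1.5-fold higher numbered 2 without a floor, where RARB enters. At a lower threshold (a difference of 0.32 in log2) 2 were higher and 4 lower, against 8.57% and 10.7% of all genes at the floor. Their median of -0.14 lay between -0.14 and -0.05 under the alternatives. Of 153 alternative values of the 17 list medians, 135 moved by at most 0.1 and 18 by more, 2 of these 18 from leaving out shared genes (0.60 for CREB and calcium responsive genes, 0.02 for retinoid synthesis and transport). Without a floor the glucocorticoid target median was 0.31. The scalings moved the median of all genes at the floor by at most 0.06. NR4A2 and NR4A3 gave no value under any setting. No paired analysis was possible because each population has 1 array. RMA compresses differences of dim probe sets, which limits the 16 members under the floor.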

Other observations

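Apart from the single-symbol probe sets, 7 probe sets were annotated with several genes that include a member. Their differences, SP minus NSP in log2, ran from -0.38 to 0.36, with 3 higher and 4 lower in SP and 0 past 1.5-fold. They cannot be assigned to a receptor gene.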
